A study of Saccharomyces cerevisiae with 4 samples.

Results

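The 54 genes described here encode assembly factors of the large (60S) subunit of the yeast ribosome, among them RNA helicases, GTPases, methyltransferases and proteins that hold the place of later ribosomal proteins. They were chosen by name as members of the pathway, with earlier results of these data known, and each was read through the probe set that the platform annotation assigns to it. All 54 were found among the 5449 Saccharomyces cerevisiae genes tested, each with 1 probe set. Transcripts had been measured on 4 Affymetrix arrays from BY4741, a widely used haploid strain (mating type a) with deletions in HIS3, LEU2, MET15 and URA3 in treated and control cultures alike. Cultures in rich medium (YPD) with a labelled age of 8 h had received honokiol, a biphenolic compound of magnolia bark, at 12 µg/mL for 2 h (2 arrays), or an equal volume of ethanol, its solvent (2 arrays). The titles call the replicates biological. The comparison asks how the transcripts of the 60S assembly line stand with honokiol against the solvent alone.

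The large subunit is built in the nucleolus around a precursor RNA that is cut, folded and chemically modified while assembly factors bind and leave in order. The particle then passes through the nucleoplasm and is exported to the cytoplasm, where the last factors are replaced by ribosomal proteins. In yeast the genes for these factors belong to a large group that is known to be transcribed together in growing cells and to be turned down when growth slows.

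Values are log2 intensities, so a difference of 1 is a 2-fold change. Each level is given for replicates 1 and 2 in that order. The background level was 4.39, the 95th percentile of the 1747 probe sets whose annotation matched no single gene of the S. cerevisiae gene table. No member had a group mean under it (lowest 6.27, highest 11.68). Median intensity over all tested genes was 9.57 to 9.59 on the 4 arrays, and replicate arrays correlated at 0.998 (honokiol) and 0.995 (ethanol) over genes. Among the genes deleted in BY4741, LEU2, MET15 and URA3 lay at 2.73 to 4.56, near or under background, while HIS3 lay at 10.70 to 11.05. The HIS3 allele of BY4741 removes only a part of the gene, and a probe outside that part checks nothing. Of the genes for mating type, STE2 of a cells lay at 12.47 to 12.92 and MF(ALPHA)1 of alpha cells at 3.27 to 3.83. The other 3 alpha-cell genes were above background, STE3 at 7.14 to 7.98, SAG1 at 9.14 to 9.30 and MF(ALPHA)2 at 5.45 to 6.58. The mean 5'/3' log ratio of 7 yeast control transcripts was -1.18 and -1.22 for honokiol and -1.31 and -1.67 for ethanol. Ethanol replicate 2 stood lowest in this ratio, and results are therefore also given without it.

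The assembly factors rose together with honokiol. Of the 54 genes 51 passed the test as higher (limma, adjusted p between 0.00103 and 0.0212) and 0 as lower (all 54 fold changes were positive, so 0 were lower at an unadjusted p under 0.05 too), while over all tested genes 23.9% passed as higher and 25.0% as lower. The median log2 fold change of the 54 was 0.77 (1.70-fold), with a range from 0.11 to 1.85, against a median of 0.01 over all genes. At least 2-fold higher were 16 of the 54, where the share over all genes was 3.78%. In all 54 both honokiol arrays lay above both ethanol arrays, as they did in 40.0% of all genes. The members that did not pass were DBP6, NOC3 and TIF6. Because RMA normalizes between arrays, these are levels relative to other transcripts. More cells with a transcript cannot be told apart from more transcript per cell.

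Array by array, the median level of the members was 9.67 and 9.77 with honokiol and 8.88 and 8.63 with ethanol. Both honokiol arrays were high, and ethanol replicate 2 was the lowest of the 4. The distance from the lower honokiol array to the higher ethanol array had a median of 0.62 over the members and ran from 0.01 (DBP6) to 1.50 (RRS1 and RPF1). It was above 0.5 in 37 members. Ethanol replicate 1 lay above ethanol replicate 2 in 46 of the 54 genes, by a median of 0.17 over all 54, against 0.01 over all tested genes. Honokiol replicate 2 lay above honokiol replicate 1 in 47 of the 54. Replicate 1 minus replicate 2 had a median of -0.08 there, against 0.005 over all tested genes. Members thus moved together between replicates too, and their calls are not independent of each other. Without ethanol replicate 2 the median of the members was 0.69 and 51 of 54 passed. Without ethanol replicate 1 it was 0.89 and 53 passed. The spread in these fits comes from the honokiol pair alone, the lone ethanol array being assumed to vary alike, although replicate differences had an SD over genes of 0.121 with honokiol and 0.209 with ethanol. Over all genes 22.7% and 30.0% passed as higher in them. Without honokiol replicate 1 or 2 the number that passed was 38 or 32, the spread then coming from the ethanol pair alone. Over all genes 8.06% or 8.09% passed as higher in these fits. Of the members, 32 passed whichever array was left out. All 54 fold changes were positive in these 4 fits, which was fixed in advance, because the groups overlapped in no member.

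**Figure D1:**
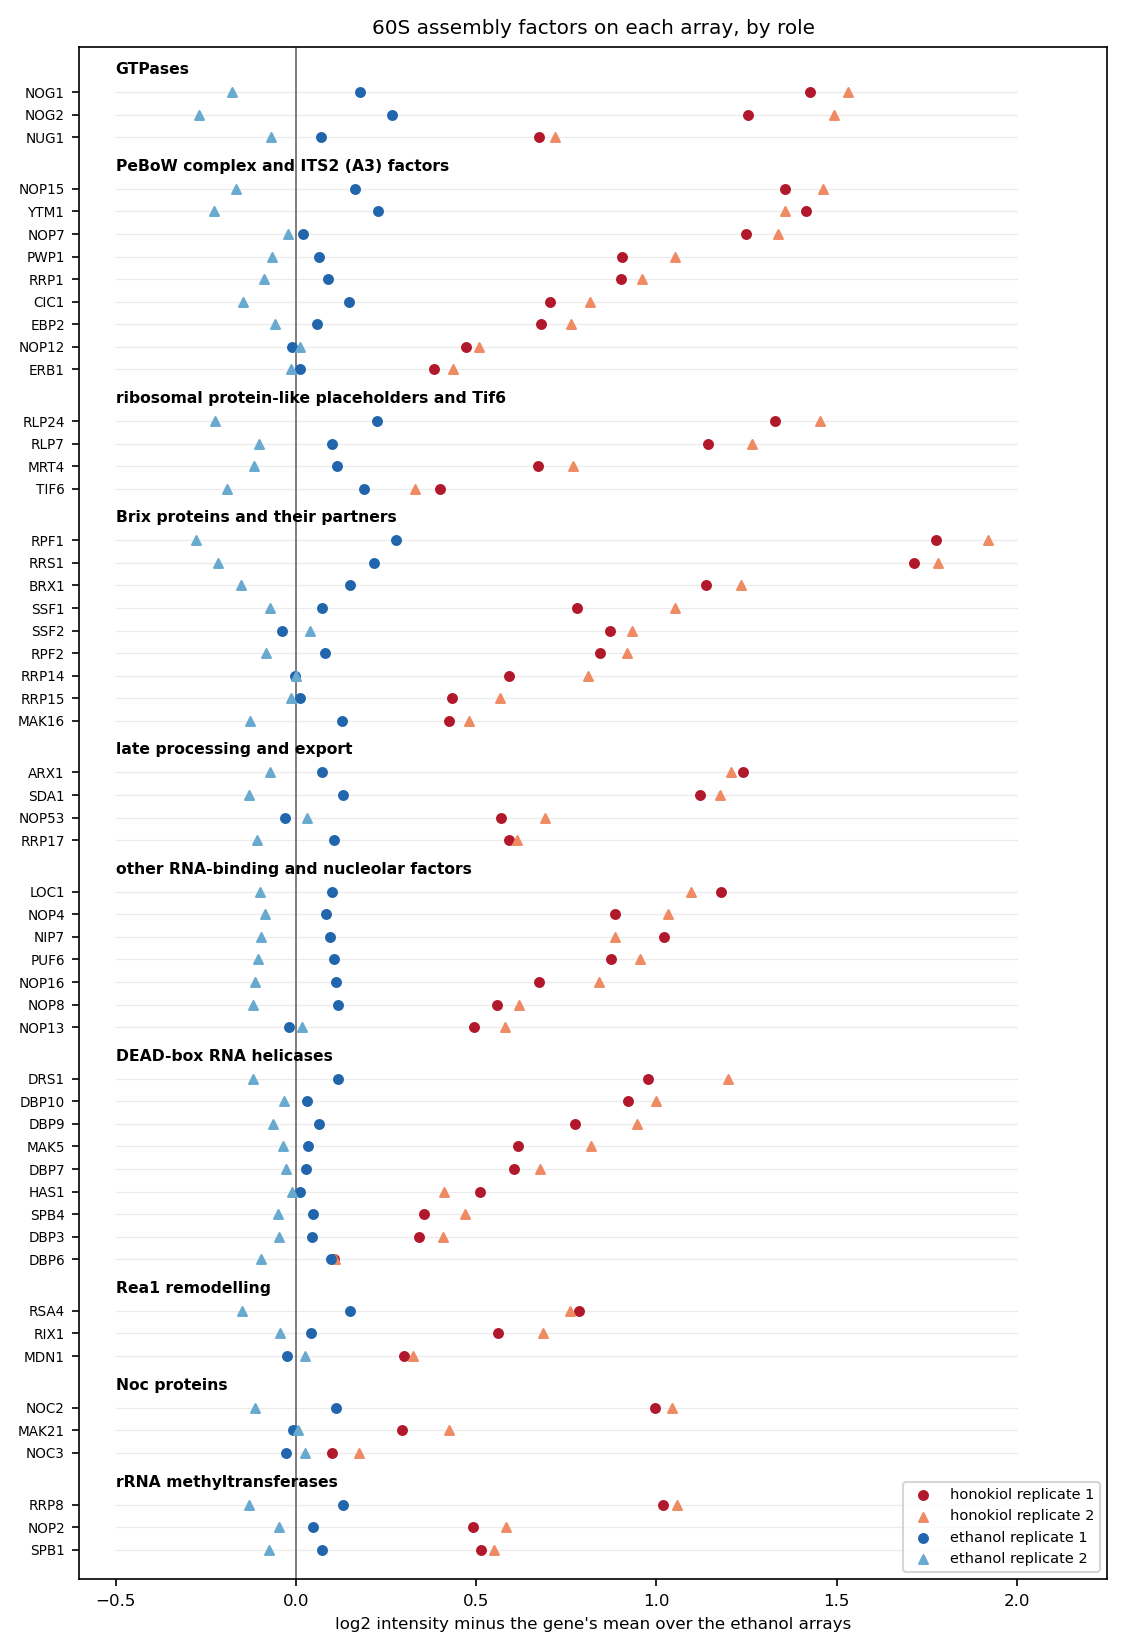
The plot shows each of the 54 genes by role on the vertical axis, with the log2 intensity of every array minus that gene's mean over the ethanol arrays on the horizontal axis (red and orange, honokiol; blue, ethanol; circles, replicate 1; triangles, replicate 2). Honokiol points lie to the right of both ethanol points in all 54 genes, from a near touch in DBP6 to a distance of 1.50 in RRS1 and RPF1.

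The largest rises of the 54 were those of RPF1 and RRS1, which are among the Brix-domain proteins and their partners. All 9 genes of this role passed as higher, with a median log2 fold change of 0.90. RPF1 (YHR088W), a Brix protein of the early nucleolar particle, had levels of 9.16 and 9.30 with honokiol and 7.66 and 7.10 with ethanol. Its honokiol arrays lay close together and the ethanol arrays 0.55 apart, without overlap. The difference was log2 1.85 ± 0.19 (SE), a 3.60-fold rise (adjusted p = 0.00345). MAK16 (YAL025C), which sits beside Rpf1 in the particle, rose by the least in this role, 1.37-fold (adjusted p = 0.0212), and missed the threshold without either honokiol array (adjusted p = 0.108 and 0.124). Its log2 fold change of 0.45 became 0.24 after repeated quantile normalization (adjusted p = 0.0351) and 0.26 with the 5'/3' ratio in the model (adjusted p = 0.0791), and it did not pass with all probe sets as features either (adjusted p = 0.0595).

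RRS1 (YOR294W), which together with Rpf2 brings the 5S RNA and its proteins into the particle, was at 8.90 and 8.96 with honokiol and at 7.40 and 6.97 with ethanol. The groups were far apart relative to their spread, and the rise was log2 1.75 ± 0.15, or 3.36-fold (adjusted p = 0.00239). Its partner RPF2 (YKR081C) rose 1.84-fold (log2 0.88 ± 0.08, adjusted p = 0.00258). Of the genes that act around the Ssf1 protein, RRP14 rose 1.63-fold and RRP15 1.42-fold (adjusted p = 0.00528 and 0.00666, and 0.0622 for RRP15 without honokiol replicate 2). BRX1, a Brix protein that works with Ebp2, rose 2.28-fold (adjusted p = 0.00308).

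SSF1 and SSF2 are a duplicated pair that encodes near-identical Brix proteins. SSF1 (YHR066W) was at 7.05 and 7.32 with honokiol and 6.34 and 6.20 with ethanol. SSF2 (YDR312W) was at 8.16 and 8.23 with honokiol and 7.25 and 7.33 with ethanol. Neither gene had overlapping groups, and the fold changes were close to each other. They were 1.89-fold for SSF1 (log2 0.92 ± 0.12, adjusted p = 0.00505) and 1.87-fold for SSF2 (log2 0.90 ± 0.06, adjusted p = 0.00163). Repeated quantile normalization gave log2 0.68 for SSF1 and 0.76 for SSF2 (adjusted p = 0.0126 and 0.00319). Neither probe set carries the platform's mark for binding several transcripts, but their sequences were not examined here, so signal shared by the pair was not tested. Levels of different probe sets cannot be set against each other, and which gene of the pair is the more abundant is therefore not given.

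The 3 GTPases rose, with a median of 1.37. NOG1 (YPL093W), which binds the nucleolar particle with Rlp24, was at 10.13 and 10.23 with honokiol and 8.88 and 8.52 with ethanol. The difference was log2 1.48 ± 0.13, or 2.79-fold (adjusted p = 0.00246). NOG2 (YNR053C), a GTPase that leaves shortly before export, was at 10.19 and 10.42 with honokiol and 9.20 and 8.66 with ethanol. Both genes were thus separated by a log2 distance near 1 or more, though the ethanol arrays of NOG2 differed by 0.54. NOG2 rose 2.59-fold (log2 1.37 ± 0.20, adjusted p = 0.00695), with adjusted p = 0.0558 without honokiol replicate 2. NUG1 rose 1.62-fold (log2 0.70 ± 0.07, adjusted p = 0.00343).

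Factors grouped here around the Nop7 complex and the spacer between the 5.8S and 25S RNAs (ITS2) rose in 9 of 9 genes. Their median was 0.93. NOP15 (YNL110C), an RNA-binding protein of the ITS2 part of the particle, was at 9.93 and 10.04 with honokiol and 8.74 and 8.41 with ethanol. That was a rise of log2 1.41 ± 0.13, or 2.66-fold (adjusted p = 0.00244). YTM1 (YOR272W) was at 10.27 and 10.21 with honokiol and 9.08 and 8.62 with ethanol. It rose 2.61-fold (log2 1.39 ± 0.16, adjusted p = 0.004), and its groups did not overlap although its ethanol arrays stood 0.45 apart. The protein Ytm1 forms a complex with Nop7 and Erb1, known in mammals as PeBoW, and is later pulled off by the ATPase Rea1.

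The genes of that complex rose by unequal amounts. NOP7, the yeast counterpart of mammalian PES1, rose 2.45-fold with a small error (log2 1.29 ± 0.06) and had the lowest adjusted p of the 54, 0.00103. ERB1 rose 1.33-fold (log2 0.41 ± 0.06, adjusted p = 0.00688), with adjusted p = 0.0653 and 0.0747 without honokiol replicate 1 and 2. The difference in fold change between ERB1 and its partners was not tested. PWP1, RRP1, CIC1, EBP2 and NOP12, further factors around ITS2 and the 5' part of the 25S RNA, rose between 1.40-fold (NOP12) and 1.97-fold (PWP1). CIC1 and NOP12 missed the threshold without honokiol replicate 1 (adjusted p = 0.0554 and 0.0525) and without honokiol replicate 2 (adjusted p = 0.0649 and 0.0561).

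Placeholders resemble a ribosomal protein and occupy its site until it can bind. RLP24 (YLR009W), which precedes the ribosomal protein Rpl24, was at 10.24 and 10.36 with honokiol and 9.13 and 8.68 with ethanol. It rose 2.62-fold (log2 1.39 ± 0.16, adjusted p = 0.00414), with the ethanol arrays 0.45 apart. RLP7 (YNL002C), a relative of ribosomal protein L7 that binds near ITS2, was at 10.17 and 10.30 with honokiol and 9.13 and 8.93 with ethanol. Its groups were 1.04 apart at their nearest, and it rose 2.30-fold (log2 1.20 ± 0.09, adjusted p = 0.00189). MRT4, which precedes the stalk protein P0, rose 1.65-fold (adjusted p = 0.00608, and 0.0574 without honokiol replicate 2).

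TIF6 (YPR016C), which keeps the new large subunit from joining the small one too early, did not pass. Its levels were 11.72 and 11.65 with honokiol and 11.51 and 11.13 with ethanol. Most of the distance between the groups came from ethanol replicate 2, and ethanol replicate 1 was only 0.14 below the nearer honokiol array. The difference was log2 0.37 ± 0.14 (adjusted p = 0.0821), 0.18 without ethanol replicate 2 (adjusted p = 0.0987) and 0.56 without ethanol replicate 1 (adjusted p = 0.00275). With the 5'/3' ratio in the model it was 0.06. TIF6 passed with a trend and robust prior, after repeated quantile normalization and with a replicate block (adjusted p = 0.0241, 0.0486 and 0.039), so its place on either side of the threshold depends on the setting.

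DEAD-box helicases unwind RNA duplexes in the precursor. Of these 9 genes 8 rose, with a median of 0.64. DRS1 (YLL008W) was at 8.93 and 9.15 with honokiol and 8.07 and 7.84 with ethanol, a rise of log2 1.09 ± 0.12 or 2.13-fold (adjusted p = 0.00375). DBP10 (YDL031W) was at 9.98 and 10.06 with honokiol and 9.09 and 9.03 with ethanol, a rise of log2 0.96 ± 0.06 or 1.95-fold (adjusted p = 0.00147). Neither had overlapping groups, and the replicates of DBP10 were closer together than those of DRS1. Further rises were 1.82-fold for DBP9, 1.64-fold for MAK5 and 1.56-fold for DBP7 (adjusted p = 0.00333, 0.00497 and 0.00306).

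Smaller rises were those of HAS1, which works in both subunits (1.38-fold), SPB4 (1.33-fold) and DBP3 (1.30-fold), with adjusted p = 0.00656, 0.0119 and 0.0116. These 3 did not pass without honokiol replicate 1 (adjusted p = 0.0707, 0.066 and 0.0803) or without honokiol replicate 2 (adjusted p = 0.0514, 0.0967 and 0.1), and SPB4 did not with the 5'/3' ratio in the model (adjusted p = 0.0539). DBP6 (YNR038W), a helicase of the earliest steps, had the smallest difference of the 54. Its levels were 9.86 and 9.86 with honokiol and 9.85 and 9.65 with ethanol. Ethanol replicate 1 was level with the honokiol arrays, and only ethanol replicate 2 lay lower. The difference was log2 0.11 ± 0.08 (adjusted p = 0.333), 0.01 without ethanol replicate 2, 0.20 without ethanol replicate 1 (adjusted p = 0.0472), and -0.044 with the 5'/3' ratio in the model.

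Noc proteins bind the precursor in successive pairs, first Noc1 (gene MAK21) with Noc2, then Noc2 with Noc3. NOC2 (YOR206W), common to both pairs, was at 9.66 and 9.71 with honokiol and 8.78 and 8.55 with ethanol, and rose 2.03-fold (log2 1.02 ± 0.09, adjusted p = 0.00256). MAK21 (YDR060W) was at 10.11 and 10.24 with honokiol and 9.81 and 9.82 with ethanol, and rose 1.28-fold (log2 0.36 ± 0.07, adjusted p = 0.0146). NOC3 (YLR002C) was at 9.34 and 9.41 with honokiol and 9.21 and 9.26 with ethanol, and did not pass (log2 0.14 ± 0.06, adjusted p = 0.133). In NOC3 the groups did not overlap but lay only 0.07 apart, and it passed under none of the 13 alternatives (adjusted p from 0.0858 to 0.496). MAK21 did not pass without honokiol replicate 1 or 2 (adjusted p = 0.0672 and 0.112), nor with all probe sets as features (adjusted p = 0.0505).

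All 3 methyltransferases that modify the 25S RNA rose. RRP8 (YDR083W), which methylates an adenine, was at 8.87 and 8.91 with honokiol and 7.98 and 7.72 with ethanol. It rose 2.05-fold (log2 1.04 ± 0.10, adjusted p = 0.00306). NOP2 (YNL061W), which methylates a cytosine, was at 10.58 and 10.67 with honokiol and 10.14 and 10.04 with ethanol. Its arrays did not overlap either, and it rose 1.45-fold (log2 0.54 ± 0.07, adjusted p = 0.00555, and 0.0589 without honokiol replicate 2). SPB1, which methylates ribose, rose 1.45-fold (adjusted p = 0.00639, and 0.0604 and 0.0634 without honokiol replicate 1 and 2).

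Among RNA-binding and other nucleolar factors, 7 of 7 rose with a median of 0.91. LOC1 (YFR001W), also known for its part in localising ASH1 mRNA, was at 9.45 and 9.36 with honokiol and 8.37 and 8.16 with ethanol. It rose 2.20-fold (log2 1.14 ± 0.09, adjusted p = 0.0019). NOP4 (YPL043W), with several RNA recognition motifs, was at 9.68 and 9.82 with honokiol and 8.88 and 8.71 with ethanol. It rose 1.94-fold (log2 0.96 ± 0.09, adjusted p = 0.00287), and neither gene had overlapping groups. NIP7 rose 1.94-fold and its partner NOP8 1.50-fold (adjusted p = 0.00308 and 0.00943). PUF6, a Pumilio-type protein that also binds ASH1 mRNA, rose 1.88-fold, NOP16 rose 1.69-fold and NOP13 rose 1.45-fold (adjusted p = 0.00316, 0.00648 and 0.00434). Without honokiol replicate 2 NOP8, NOP16 and NOP13 did not pass (adjusted p = 0.0749, 0.0561 and 0.054), nor did NOP8 without honokiol replicate 1 (adjusted p = 0.0673).

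Rea1, the product of MDN1 and one of the largest yeast proteins, is an ATPase that strips factors from the particle. MDN1 (YLR106C) was at 11.13 and 11.16 with honokiol and 10.81 and 10.86 with ethanol. It rose 1.24-fold (log2 0.31 ± 0.06, adjusted p = 0.0132), the smallest rise that passed, and did not pass without honokiol replicate 1 or 2 (adjusted p = 0.106 and 0.112) or with all probe sets as features (adjusted p = 0.051). RSA4 (YCR072C), on which Rea1 pulls in the nucleoplasm, was at 9.39 and 9.37 with honokiol and 8.76 and 8.46 with ethanol. Its groups were clearly apart, and it rose 1.71-fold (log2 0.77 ± 0.11, adjusted p = 0.00708, and 0.0621 and 0.0574 without honokiol replicate 1 and 2). RIX1 (YHR197W), which helps to dock Rea1, was at 8.44 and 8.57 with honokiol and 7.92 and 7.84 with ethanol, and rose 1.54-fold (log2 0.62 ± 0.07, adjusted p = 0.00442).

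Late processing and export factors rose in 4 of 4 genes, with a median of 0.89. ARX1 (YDR101C), a shuttling export factor that sits at the exit of the peptide tunnel, was at 9.50 and 9.47 with honokiol and 8.33 and 8.19 with ethanol. It rose 2.34-fold (log2 1.22 ± 0.07, adjusted p = 0.00131). SDA1 (YGR245C), needed for passage to the nucleoplasm and export, was at 9.80 and 9.86 with honokiol and 8.81 and 8.55 with ethanol. Both genes had honokiol arrays about 1 or more above the nearer ethanol array, and SDA1 rose 2.22-fold (log2 1.15 ± 0.10, adjusted p = 0.00249). NOP53, which recruits the exosome to trim ITS2, rose 1.55-fold (adjusted p = 0.0039), and RRP17, a 5'-to-3' exonuclease, rose 1.52-fold (adjusted p = 0.0073, and 0.0634 and 0.0639 without honokiol replicate 1 and 2).

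The other genes of the pathway, a list of 35 further 60S factors, were read in the same fit. Of these 26 rose and 1 fell, with a median of 0.58, where 23.9% of all tested genes rose and 25.0% fell. SYO1 (YDL063C), the chaperone that carries ribosomal proteins L5 and L11 into the nucleus, was at 8.72 and 8.77 with honokiol and 6.64 and 6.20 with ethanol. It rose 5.02-fold (log2 2.33 ± 0.15, adjusted p = 0.00142), a larger change than that of any of the 54. ALB1, the partner of Arx1, rose 2.40-fold, RRB1, the chaperone of ribosomal protein L3, rose 2.20-fold, and IPI3, of the Rix1 complex, rose 2.20-fold (adjusted p = 0.00476, 0.00163 and 0.00128). The gene that fell was FPR3, which encodes a nucleolar proline isomerase and dropped by 0.35 (log2, adjusted p = 0.015). That call was lost without honokiol replicate 1 or 2 (adjusted p = 0.122 and 0.0908), with all probe sets as features (adjusted p = 0.0513) and with the 5'/3' ratio in the model (adjusted p = 0.0618). The 8 factors that did not pass were EFL1, URB1, URB2, RAI1, RSA1, RAT1, LSG1 and MAK11. Without honokiol replicate 1 or 2, 15 or 14 of the 35 rose, where 8.06% or 8.09% of all genes did.

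The small-subunit processome, the machinery that starts assembly of the other subunit, gave 42 of 48 genes higher and 0 lower, with a median of 0.55 and all 48 fold changes positive, beside 23.9% higher and 25.0% lower over all tested genes. The medians of 0.77, 0.58 and 0.55 are descriptions of these lists, and their differences were not tested.

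**Figure D2:**
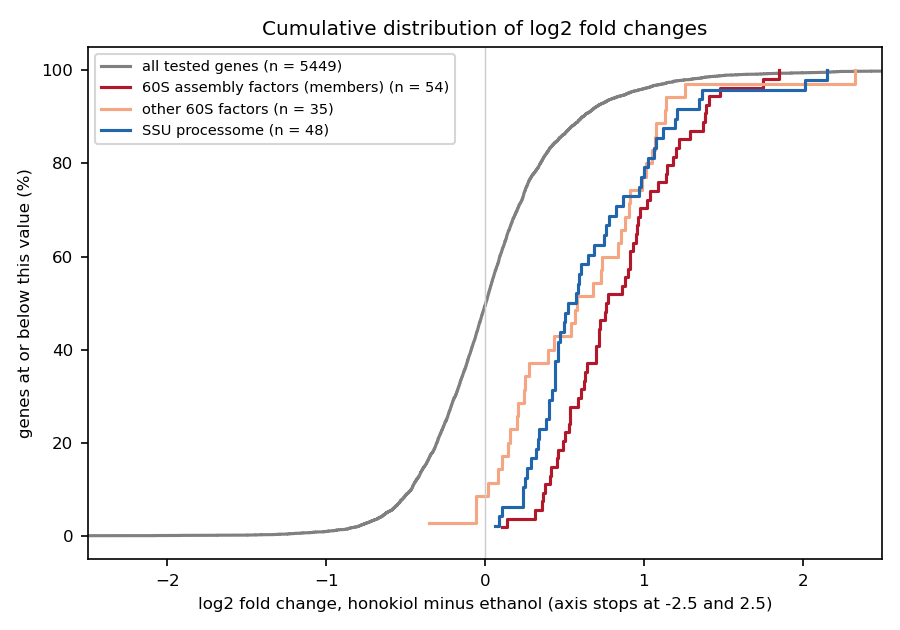
Cumulative share of genes (vertical axis, percent) at or below a given log2 fold change, honokiol minus ethanol (horizontal axis), for all 5449 tested genes, the 54 assembly factors, the 35 other 60S factors and the 48 small-subunit processome genes. The curve of the 54 runs from 0.11 to 1.85 with its middle at 0.77, while that of all genes has its middle at 0.01.

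Of 12 genes that encode regulators of ribosome synthesis, 4 rose and 1 fell, where 23.9% of all tested genes rose and 25.0% fell. TOD6 (YBL054W), a repressor that binds promoters of ribosome biogenesis genes, was at 8.35 and 8.42 with honokiol and 6.44 and 6.16 with ethanol. It rose 4.25-fold (log2 2.09 ± 0.11, adjusted p = 0.00117), while its paralog DOT6 was at 11.20 and 11.17 with honokiol and 11.08 and 11.19 with ethanol, with overlapping groups (log2 0.05 ± 0.07, adjusted p = 0.583). IFH1, a coactivator of ribosomal protein genes, rose 1.76-fold and CRF1, which opposes it, rose 2.07-fold (adjusted p = 0.00258 and 0.00918). CRF1 did not pass without honokiol replicate 1 or 2 (adjusted p = 0.0662 and 0.0649), and its log2 fold change was 0.66 with the 5'/3' ratio in the model, against 1.05 in the fit without it. STB3, another repressor of this gene group, decreased by 0.46 (log2, adjusted p = 0.00754, or 0.0781 and 0.0613 without honokiol replicate 1 and 2). The activator SFP1 rose 1.18-fold at the edge of the threshold (adjusted p = 0.0438), a call lost without ethanol replicate 1 and with a replicate block (adjusted p = 0.0751 and 0.054), as well as without honokiol replicate 1 or 2 (adjusted p = 0.235 and 0.174) and with all probe sets as features (adjusted p = 0.122).

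Gene length moved with the fold change over the whole array. Over all tested genes the median log2 fold change was 0.14 in the shortest quartile (gene span up to 756 bp) and -0.17 in the longest (1902 bp and more). In the 54, the 10 members in the shortest quartile had a median of 0.86 and the 16 in the longest quartile 0.82. The 9 and 19 members in the quartiles between had medians of 0.93 and 0.70. In each quartile the members' median lay above that of all genes in that quartile. Members were not matched to other genes by length within a quartile, and a part of length in their fold changes was not tested. Spearman's rho between log10 gene span and log2 fold change was -0.26 over the 54 members and -0.29 over all 5449 genes, as a description of genes that share the same 4 arrays.

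**Figure D3:**
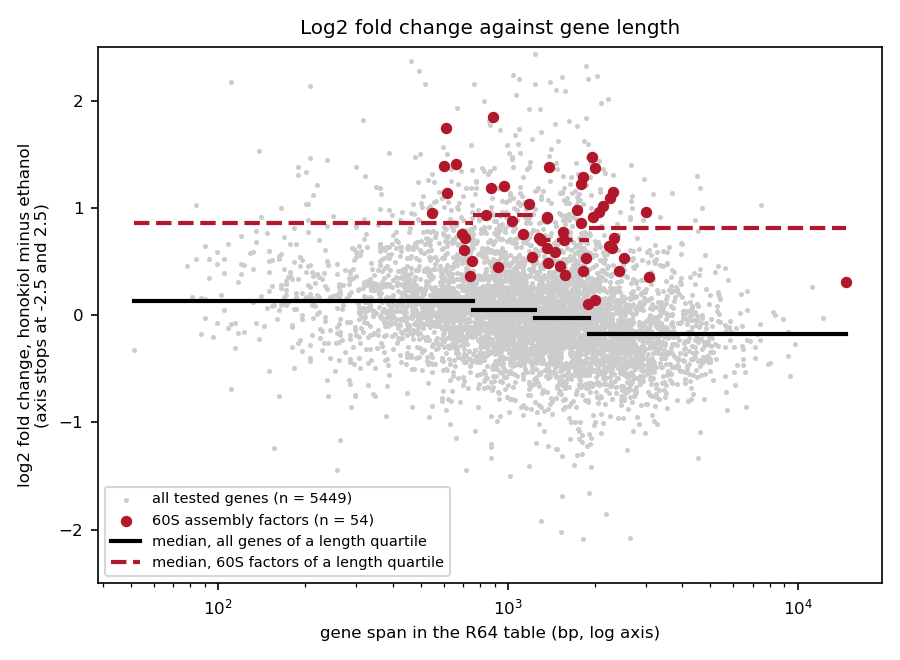
Log2 fold change, honokiol minus ethanol (vertical axis), against gene span in the R64 gene table (horizontal axis, bp, log scale). Grey points are all tested genes and red points the 54 assembly factors, with black and dashed red lines for their medians in each length quartile. The red medians lie between 0.70 and 0.93, and the black ones fall from 0.14 to -0.17.

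On both ethanol arrays the mean 5'/3' ratio of the control transcripts was also the lower one, though SPT15 on ethanol replicate 1 (-1.66) lay above both honokiol arrays (-1.71 and -1.78). Because ratio and treatment went together over the 4 arrays, their parts cannot be cleanly told apart by a model. With this ratio in the model, which leaves fewer degrees of freedom, 49 of the 54 passed as higher and 0 as lower. The median was 0.71. At least 2-fold rises then numbered 9 in place of 16. Over all genes 17.1% passed as higher in that fit. In that model RPF1 went from 1.85 to 1.43, NOG2 from 1.37 to 0.98, YTM1 from 1.39 to 1.03, RLP24 from 1.39 to 1.05 and TIF6 from 0.37 to 0.06, while NOP7 went only from 1.29 to 1.27. Spearman's rho over the 54 was 0.59 between fold change and ethanol replicate 1 minus ethanol replicate 2, a description in which both measures share the ethanol arrays.

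**Figure D4:**
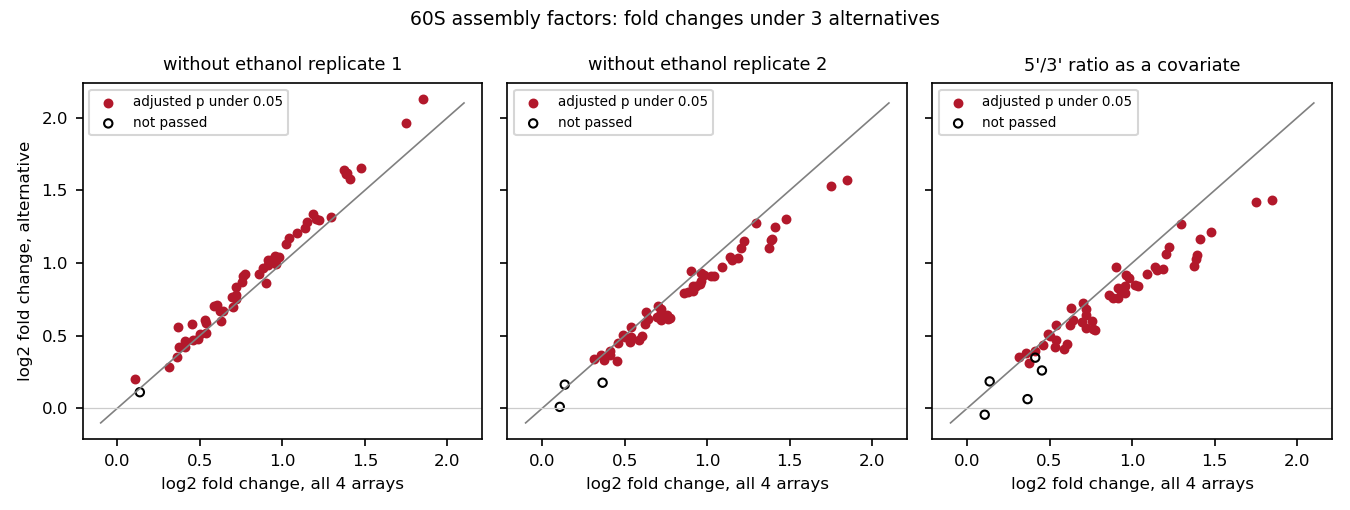
Log2 fold change of each of the 54 genes with all 4 arrays (horizontal axis) against the same value without ethanol replicate 1, without ethanol replicate 2 and with the 5'/3' ratio in the model (vertical axes, left to right). Filled points passed at an adjusted p under 0.05, open points did not, and the grey line marks equality. Points lie mostly above the line in the left panel and below it in the other panels, and 53, 51 and 49 of the 54 passed.

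Members lay next to another gene of these lists in the R64 gene table in 4 cases. RIX1 (0.62) adjoins UTP9 (0.59), PWP1 (0.98) adjoins NOP56 (0.50), NOG2 (1.37) adjoins ESF2 (0.24) and RRP15 (0.50) adjoins NOC4 (0.83), with log2 fold changes in parentheses. The first 3 pairs are transcribed in the same direction and the last pair towards each other. Neighbours were alike in the RIX1 pair and far apart in the NOG2 pair.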

How the data were processed

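Transcripts were measured on 4 Affymetrix arrays, 2 per group, with groups and replicate numbers from the sample titles. The deposited table gives 1 linear intensity for each probe set on each array (2.58 to 22549). Per the submitters' processing notes the authors used RMA; its version and settings are not given in the sources used here. RMA corrects background, normalizes between arrays and summarises probes. The number of arrays limits the precision.

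Log2 was taken with no pseudocount. Of 10928 probe sets, 5498 named 1 gene of the S. cerevisiae R64 table by Entrez ID (1747 named others, 3683 none). The brightest probe set per gene gave 5449 genes, of which 47 had several. MDN1 is listed there as REA1. Coordinates are left out because the values come without a named genome build.

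Honokiol was compared with ethanol by limma 3.58.1 (lmFit, eBayes) in R 4.3.3, two-sided, adjusted by Benjamini-Hochberg over all 5449 genes, at 0.05, with 2 residual and 2.76 prior degrees of freedom. Errors are its SE. In simulations of 5449 genes with 200 changed it recovered 55.8% of changes of log2 0.5 and 92.8% of log2 1, with 4.64% false calls. These simulations changed fewer genes than passed here and gave both groups the same spread. Their rates therefore need not hold for these data. Members, lists and roles were chosen with earlier results of these data known, so no list was tested. Values on every array are given for the 2 largest changes in each role, members that did not pass and the SSF1 and SSF2 pair. Beyond that rule they are given for MDN1, SYO1, TOD6 and DOT6. Of the other lists, the 4 largest changes, any that fell and regulators that passed are named. Replicates share numbers across groups, but no label says that a number marks a shared culture or day. The 13 alternatives were a trend with a robust prior, repeated quantile normalization, median centring, no dim probe sets, no probe sets that can bind several transcripts, the mean of a gene's probe sets, all probe sets as features, the 5'/3' ratio of control transcripts in the model, a replicate block, and leaving out each array.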

Additional observations from a re-analysis of the deposited data

How the results depend on the processing

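Of the 54 members, 53 to 54 kept a positive fold change in each of the 13 alternatives. The exception was DBP6, at -0.044 with the 5'/3' ratio in the model. In many alternatives the sign could not change. Leaving out 1 array could not turn it, because the groups overlapped in no member. The robust prior with a trend, the choices of probe sets and the replicate block left the members' fold changes exactly as they were. The number of members passed as higher was 32 to 53 when 1 array was left out and 48 to 52 in the other alternatives, and 0 passed as lower in any. At least 2-fold rises numbered 13 to 21 when 1 array was left out and 9 with the 5'/3' ratio, against 16. The median of the members was 0.69 to 0.89 when 1 array was left out. Leaving out 1 array gave 439 to 1634 genes higher and 264 to 1556 lower over all genes, against 1302 and 1361, and 14 to 25 higher and 0 to 2 lower among the other 60S factors, against 26 and 1. With all probe sets as features these were 832 higher and 780 lower over all genes and 0 lower among the other 60S factors; with the 5'/3' ratio in the model they were 931, 936 and 0. More features tested and fewer degrees of freedom are part of these 2 alternatives by construction. With a replicate block, 52 members passed as higher. The median of 0.77 was the same by construction, because both groups hold the same replicate numbers. The deviations of same-numbered arrays correlated at 0.325 over all genes and 0.0117 over the members, and 2 pairs do not show whether the numbers pair the cultures. The planned split of members by promoter motifs was not run, because no promoter sequences were at hand. Precision is limited by having 4 arrays. No member had a group mean under background.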
